A study of Mus musculus with 5 samples.

Results

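T cells that do not carry the genes of regulatory T cells were followed through 5 single-cell RNA libraries of mouse pancreas and pancreatic tumour. A cell barcode was kept when it had at least 200 genes and at most 20% mitochondrial UMIs (unique molecular identifiers, 1 per captured transcript). A kept barcode was a member when it held at least 2 UMIs of the CD3 genes Cd3d, Cd3e and Cd3g together and at most 1 UMI of Foxp3, Ikzf2, Ctla4 and Il2ra. It also had to hold 0 UMIs of the B cell gene Cd79a and the epithelial gene Epcam, under 10 UMIs per 10000 of the macrophage genes C1qa, C1qb and C1qc, and under 30 per 10000 of the fibroblast genes Col1a1, Col1a2, Col3a1 and Dcn. The rule found 150 members among 10718 kept barcodes, of 11636 barcodes in all. The members were chosen by the measured UMI counts of these genes, so the levels of those genes are given as a description.

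The libraries came from an early KIC tumour taken at 40 days of age, a late KIC tumour at 60 days, a late KPfC tumour at 60 days, a late KPC tumour at 6 months and normal pancreas at 60 days, with no treatment in any group. As these names are generally used, Cre alters tumour genes in the pancreas of all 3 tumour models. KIC mice lose Cdkn2a there, KPfC mice lose a floxed Trp53 gene, and the Trp53 allele of KPC mice has a point mutation. The sources used here do not state the Cre driver or the number of animals behind a library. Late KPfC mice were C57BL/6, and every other group had a mixed C57BL/6 and FVB background, so strain and age cannot be told apart from genotype in several comparisons. Each group has 1 library, made with the 3′ version 2 kit of 10x Genomics, and no difference between libraries has a replicate check. The intervals are exact at 95% and cover counting error only, not the spread between animals or between cells.

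T cells read peptides on MHC molecules through a receptor whose signal passes through the CD3 chains, the kinases Lck and Zap70 and the adaptor Lat. CD8 T cells can kill target cells, which they do with granzymes and perforin, and CD4 T cells steer other immune cells with cytokines. Naive and central memory T cells carry Ccr7 and S1pr1, which guide them into and out of lymph nodes, and the transcription factors Lef1, Tcf7 and Satb1; effector cells carry Ccl5, Nkg7 and other granule genes.

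The Cd3d, Cd3e and Cd3g genes lie side by side on chromosome 9 (GRCm38), Cd3d at chr9:44981786-44987339 on the plus strand, Cd3g at chr9:44969572-44980431 and Cd3e at chr9:44998740-45009627 on the minus strand. Nkg7 lies at chr7:43437073-43438249 on the plus strand, Ccl5 at chr11:83525778-83530518 on the minus strand, Lef1 at chr3:131110471-131224356 on the plus strand and Satb1 at chr17:51736187-51833290 on the minus strand. RefSeq promoter windows (GRCm38.p6, 250 bases before to 50 after a gene's start) matched 238 of the 315 listed genes. The windows of 4 genes are shown because the results turn on them: Nkg7 was highest in late KPfC members, Lef1 in late KPC and normal members and Satb1 in late KPC members, while Cd3d entered the rule. Capitals mark ACCACA, the other strand of the RUNX motif TGTGGT, and CTTTGA or TCAAAG, the 2 strands of a TCF/LEF motif. The Lef1 window is 1 of 4 listed for that gene and the Satb1 window 1 of 5. The windows lie at chr7:43436888-43437187 (plus strand), chr3:131110047-131110346 (plus), chr17:51833241-51833540 (minus) and chr9:44981536-44981835 (plus).
Nkg7: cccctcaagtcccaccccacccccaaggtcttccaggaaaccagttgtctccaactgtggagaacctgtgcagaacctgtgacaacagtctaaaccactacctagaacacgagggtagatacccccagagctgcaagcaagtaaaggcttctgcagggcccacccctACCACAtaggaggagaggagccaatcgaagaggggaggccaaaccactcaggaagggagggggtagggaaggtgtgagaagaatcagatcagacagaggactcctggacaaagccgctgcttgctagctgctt
Lef1: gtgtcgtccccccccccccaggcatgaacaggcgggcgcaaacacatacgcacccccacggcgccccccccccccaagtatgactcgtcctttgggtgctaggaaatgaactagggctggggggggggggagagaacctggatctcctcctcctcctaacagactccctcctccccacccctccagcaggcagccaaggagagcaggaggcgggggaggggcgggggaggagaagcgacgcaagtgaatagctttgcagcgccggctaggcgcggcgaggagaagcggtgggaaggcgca
Satb1: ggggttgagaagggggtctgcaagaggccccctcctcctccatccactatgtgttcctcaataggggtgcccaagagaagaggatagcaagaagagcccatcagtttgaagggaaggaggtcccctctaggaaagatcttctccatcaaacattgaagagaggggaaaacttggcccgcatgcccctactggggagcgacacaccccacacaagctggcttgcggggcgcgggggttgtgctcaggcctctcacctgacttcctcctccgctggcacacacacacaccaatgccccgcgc
Cd3d: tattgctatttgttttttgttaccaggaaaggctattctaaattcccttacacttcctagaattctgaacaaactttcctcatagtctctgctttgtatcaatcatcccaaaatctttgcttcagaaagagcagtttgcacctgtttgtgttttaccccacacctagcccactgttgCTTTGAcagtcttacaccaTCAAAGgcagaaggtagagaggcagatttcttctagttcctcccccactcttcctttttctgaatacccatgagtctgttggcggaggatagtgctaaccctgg
Nkg7 holds 1 RUNX match and Cd3d holds 2 TCF/LEF matches, while the printed Lef1 and Satb1 windows hold neither motif. Either strand of TGTGGT is found in 16.76% of all 32851 windows (5506) and either strand of CTTTGA in 16% (5257), so each match is only a description of these letters.

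The share of kept barcodes that were members was 0.283% in early KIC (10 of 3529, interval 0.136 to 0.521), 2.99% in late KIC (25 of 836, 1.94 to 4.38), 0.546% in late KPfC (16 of 2933, 0.312 to 0.884), 1.84% in late KPC (19 of 1034, 1.11 to 2.86) and 3.35% in normal pancreas (80 of 2386, 2.67 to 4.16). Members were thus scarcest in early KIC and late KPfC, and the late KIC and normal intervals overlap. The members' median depth was 1628.5 UMIs in early KIC, 7908 in late KIC, 3291.5 in late KPfC, 1062 in late KPC and 3227 in normal pancreas, against medians over all kept barcodes of 1776, 9331.5, 7592, 1957.5 and 4224.5 in the same order. Over 5 libraries of 3488871 to 26749820 UMIs, between 1 and 17 barcodes were shared by any pair, and no member was. The members' CD3 count had a median of 2, 3, 6, 2 and 3 UMIs in early KIC, late KIC, late KPfC, late KPC and normal pancreas, and reached 4, 10, 11, 4 and 12. The rule needs 2 CD3 UMIs, so shallow T cells can be missed: 65 members stood at exactly 2 CD3 UMIs and 160 barcodes that met the rest of the rule had exactly 1. At the regulatory limit, 28 members had exactly 1 regulatory UMI and 9 barcodes outside had exactly 2. Foxp3 was at 0 in the members of every library.

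Of the T cells that passed all steps other than the regulatory one, those left out as regulatory-like were 5 of 15 in early KIC (33.3%, 11.8 to 61.6), 12 of 37 in late KIC (32.4%, 18.0 to 49.8), 11 of 27 in late KPfC (40.7%, 22.4 to 61.2), 6 of 25 in late KPC (24%, 9.36 to 45.1) and 21 of 101 in normal pancreas (20.8%, 13.4 to 30.01). The 5 intervals overlap.

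Genes of T cell receptor signalling, which the rule did not use, were higher in the members than in the other kept barcodes of every library, but most late KIC members also held transcripts of other cell types. The 16 genes (Lck, Zap70, Lat and others) summed to 2658 CPM (counts per 1e6 UMIs) in early KIC members, 557 in late KIC, 1756 in late KPfC, 1998 in late KPC and 1412 in normal pancreas, against 202, 129, 101, 200 and 179 CPM in the other kept barcodes of the same libraries. They were found in 9 of 10, 24 of 25, 16 of 16, 15 of 19 and 80 of 80 members. The T cell receptor constant genes, such as Trac and Trbc2, are not analysed here. Limits set after the data were seen mark 25 members as mixed, with over 30 keratin UMIs per 10000 (Krt8, Krt18, Krt19), over 50 myeloid UMIs (Lyz2, Cd74, Apoe, Csf1r) or over 2000 haemoglobin UMIs. There were 2 such members in early KIC, 18 in late KIC, 2 in late KPfC, 0 in late KPC and 3 in normal pancreas.

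**Figure D1:**
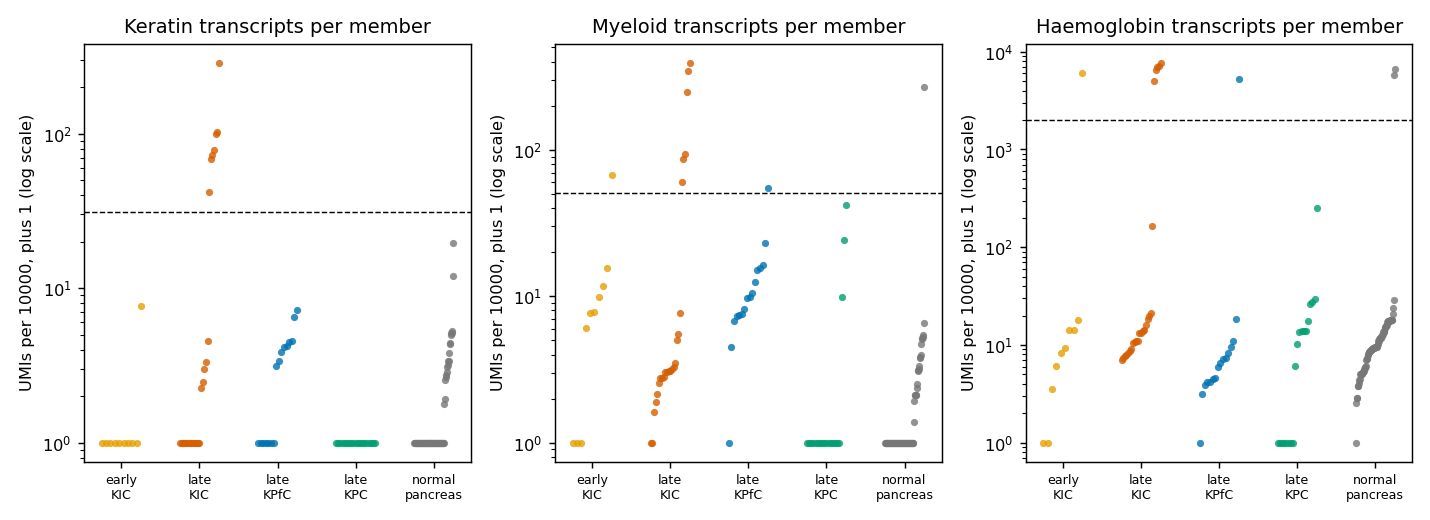
Keratin, myeloid and haemoglobin UMIs per 10000, plus 1, on log axes (vertical) in each member by library (horizontal); 1 point is 1 member and the dashed line is the limit for a mixed barcode. In late KIC 18 of 25 members lie above a limit in at least 1 panel, against 0 of 19 in late KPC and 3 of 80 in normal pancreas.

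In late KIC the mixed members made up 83.2% of the members' UMIs: 7 were rich in keratin, 6 in myeloid and 5 in haemoglobin transcripts. The 7 keratin-rich barcodes had 16675 to 68739 UMIs each. Across the library's members the epithelial list, with Krt8 and Krt18, gave 3389 UMIs, of which 5 came from the 7 unmixed members. The neutrophil list, with S100a8 and S100a9, gave 3874 UMIs and the unmixed members held 8 of them; a pair of barcodes held 1272 and 1179 of the 2489 S100a8 UMIs. Whether 2 cells shared these droplets or free RNA entered them was not tested, and no doublet caller was run. Without mixed barcodes the late KIC share was 0.837% (7 of 836, 0.337 to 1.72), against 0.227% in early KIC (8 members), 0.477% in late KPfC (14), 1.84% in late KPC (19) and 3.23% in normal pancreas (77). Among unmixed members the receptor signalling list stood at 3690 CPM in early KIC, 2425 in late KIC, 1997 in late KPfC, 2102 in late KPC and 3012 in normal pancreas, counted over UMIs that are not of acinar secretory, haemoglobin or mitochondrial genes. On this corrected scale the late KIC value lies within the range of the other libraries.

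Acinar secretory transcripts, which T cells do not make, were the other large component of these barcodes. They took 10.78% of the members' UMIs in early KIC, 0.0081% in late KIC, 0.0186% in late KPfC, 0% in late KPC and 48.48% in normal pancreas, against 13.65%, 0.261%, 0.104%, 0.0064% and 58.38% of the UMIs of the other kept barcodes. Plain CPM in normal members are therefore lowered for every other gene, and the main ratios against normal pancreas are given both plain and corrected. The natural killer list had 6, 193, 27, 3 and 45 UMIs in early KIC, late KIC, late KPfC, late KPC and normal members, of which 6, 1, 27, 3 and 30 lay in unmixed members. Of its 11 genes, 2, 4, 5, 2 and 7 had a UMI in the members, in the same order. Among the 11, Klrb1c and Ncr1 had 0 and 1 UMI over all libraries, that of Ncr1 in normal pancreas. The macrophage list stood at 1160, 2584, 1300, 727 and 828 CPM in the members, against 13435, 8592, 23106, 13237 and 2593 CPM in the other kept barcodes. The B cell list had 2, 1, 0, 3 and 1 UMIs in early KIC, late KIC, late KPfC, late KPC and normal members, and the fibroblast list 7, 13, 3, 5 and 30.

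CD8 members outnumbered CD4 members in early KIC, late KPfC and normal pancreas, and none were seen in late KPC. A member was called CD8 with a Cd8a or Cd8b1 UMI and no Cd4 UMI, and CD4 with a Cd4 UMI and none of Cd8a or Cd8b1. The CD8 class can thus be met by either of 2 genes and the CD4 class by 1 only. CD8 members were 3 of 10 in early KIC, 4 of 25 in late KIC, 10 of 16 in late KPfC (62.5%, 35.4 to 84.8), 0 of 19 in late KPC (upper bound of the interval 17.6%) and 22 of 80 in normal pancreas (27.5%, 18.1 to 38.6). CD4 members were 0, 4, 0, 2 and 10 (12.5% in normal pancreas, 6.16 to 21.8). The late KPC and late KPfC intervals of the CD8 share do not overlap, but late KPC members were 1062 UMIs deep at the median, against 3291.5 in late KPfC. Neither class could be given to 7, 17, 6, 17 and 47 members, in all 94 of 150, and 1 normal member had both. Cd8b1, which encodes the beta chain of CD8, had 2 UMIs in 2 cells in early KIC, 6 in 4 in late KIC, 18 in 9 in late KPfC, 0 in late KPC and 35 in 20 in normal pancreas. Collagen-rich barcodes, which should lack it, had a Cd8b1 UMI in 0.28%, 0%, 0%, 0% and 0.23% of cases, at median depths of 1743.5, 14260, 12125.5, 2685 and 5143 UMIs. The Cd4 share in them was at most 0.55%, in late KPfC.

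**Figure D2:**
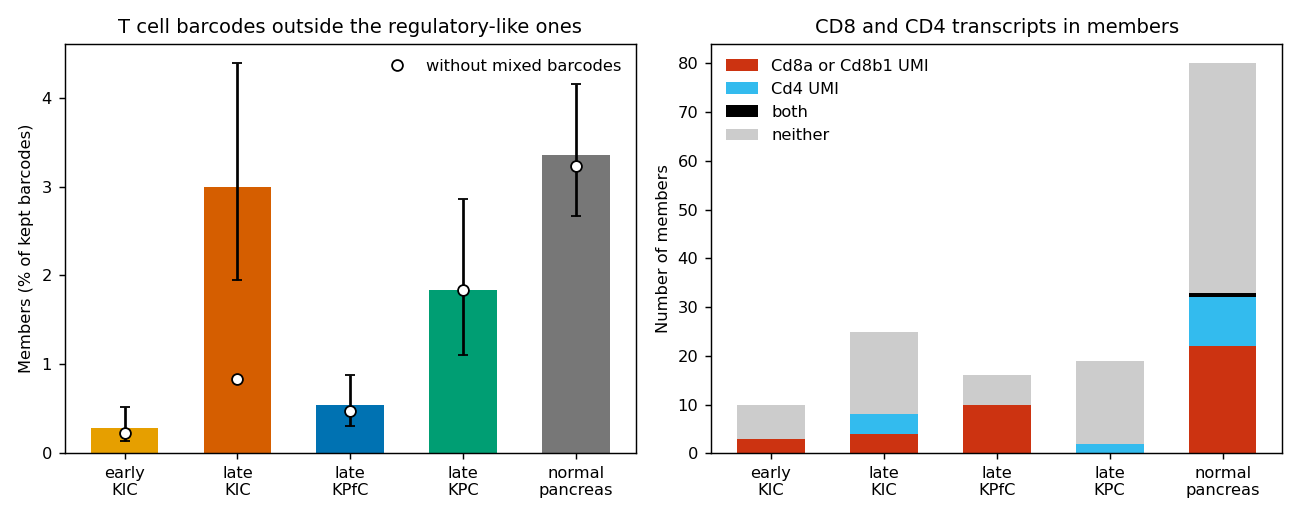
Left, members as a percentage of the kept barcodes of each library, with exact 95% intervals; open circles leave out mixed barcodes. Right, numbers of members with CD8 transcripts, CD4 transcripts, both or neither; 10 of 16 late KPfC members were CD8, against 0 of 19 in late KPC and 22 of 80 in normal pancreas.

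Ccl5, Nkg7 and Ctsw were highest in late KPfC members, where each lay in 4 to 6 of 16 cells. Ccl5, a chemokine of effector and memory T cells, had 5 UMIs in 2 cells in early KIC, 36 in 7 in late KIC, 221 in 6 in late KPfC, 0 in late KPC and 246 in 26 in normal pancreas. The levels were 242 CPM in early KIC, 94.1 in late KIC, 3731 in late KPfC (3256 to 4257), under 136 in late KPC (3 counts) and 651 in normal pancreas (572 to 737). All 36 late KIC UMIs lay in mixed barcodes, while the 221 in late KPfC lay in unmixed ones. Ccl5 was also found in 4.03%, 7.69%, 24.7%, 0.84% and 10.6% of the collagen-rich barcodes of early KIC, late KIC, late KPfC, late KPC and normal pancreas. Whether single Ccl5 UMIs in members are background was not tested, and the counts of cells with Ccl5 include them. Thinned to 650 UMIs per cell outside the acinar, haemoglobin and mitochondrial genes, 10.8%, 6.23%, 32.4%, 0% and 20.8% of members kept a Ccl5 UMI. Nkg7, a protein of cytotoxic granules, had 6 UMIs in 1 cell in early KIC, 13 in 6 in late KIC, 40 in 6 in late KPfC (675 CPM, 483 to 920), 0 in late KPC and 28 in 15 in normal pancreas (74.1 CPM, 49.2 to 107). Its share in collagen-rich barcodes was at most 1.65%, in late KPfC.

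Against normal pancreas, Ccl5 in late KPfC members was 5.74-fold higher (4.76 to 6.91) and 3.09-fold on the corrected scale (2.56 to 3.72). Nkg7 was 9.12-fold higher (5.49 to 15.4) and 4.91-fold corrected (2.95 to 8.26). Ctsw, a cathepsin of cytotoxic cells, had 12 UMIs in 4 late KPfC cells and 11 in 10 normal ones, a ratio of 6.97 (2.81 to 17.4), or 3.75 corrected (1.51 to 9.37). Klrd1, a receptor chain of killer cells that binds MHC class I, had 9 UMIs in 8 late KPfC members and 15 in 13 normal ones; its ratio of 3.83 (1.48 to 9.34) was 2.06 corrected (0.795 to 5.03), with an interval that includes 1. In late KPC, Ccl5 was at least 4.78-fold lower than in normal pancreas (corrected log2 ratio -3.23) and at least 27.4-fold lower than in late KPfC, and Nkg7 was at least 4.96-fold lower than in late KPfC, all taken against 3 counts in the late KPC library. Of the 14 cytotoxic genes late KPC members held Klrd1, with 5 UMIs in 3 members (227 CPM), and Ctsd, a protease of lysosomes in many cell types, with 4 UMIs in 3. Klrd1 was 5.72-fold higher than in normal pancreas (1.63 to 16.6) and 2.92-fold corrected (0.830 to 8.45).

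The granule proteins themselves were rare at this depth. Gzma was found only in normal members, with 10 UMIs in 4 cells, and Gzmb, which triggers death of the target cell, had 0 UMIs in early KIC, 1 in late KIC, 5 in late KPfC, 0 in late KPC and 14 in normal pancreas, the last in 3 cells. Prf1, which encodes the pore-forming perforin, had 1 UMI each in late KIC, late KPfC and normal pancreas, and Gzmk had 1 UMI, in late KPfC. Klrc1, the inhibitory partner of Klrd1, had 11 UMIs in 2 late KPfC members and 1 in normal pancreas.

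**Figure D3:**
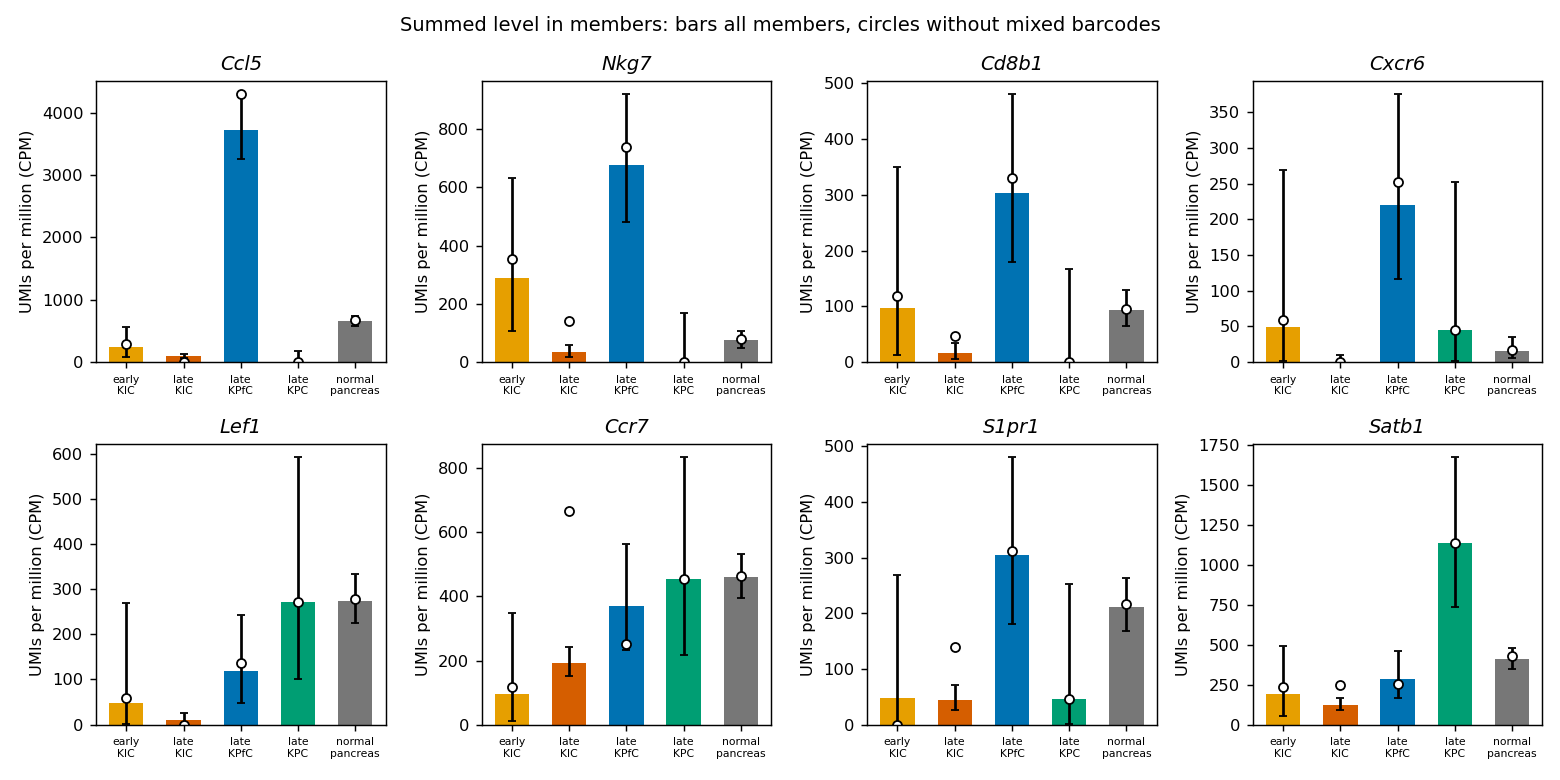
Levels of 4 effector or CD8 genes (Ccl5, Nkg7, Cd8b1, Cxcr6) and 4 genes of naive cells (Lef1, Ccr7, S1pr1, Satb1) in CPM by library; bars are all members with exact Poisson 95% intervals and circles leave out mixed barcodes. Ccl5 stood at 3731 CPM in late KPfC, against 651 in normal pancreas, and Satb1 at 1135 CPM in late KPC, against 413 in normal pancreas. These are plain CPM, which acinar transcripts lower in normal members. Corrected, in unmixed members, Ccl5 was at 4550 CPM in late KPfC, against 1415 in normal pancreas, and Satb1 at 1194 in late KPC, against 910.

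Per cell, the 5 genes Ccl5, Nkg7, Cst7, Ctsw and Klrd1 gave 5 or more UMIs in 1 of 8 unmixed members of early KIC, 2 of 7 of late KIC, 5 of 14 of late KPfC, 0 of 19 of late KPC and 12 of 77 of normal pancreas. The 5 late KPfC cells held 22 to 80 such UMIs and 4 of them were CD8; the 12 normal cells held 5 to 58, with 7 CD8 and 1 CD4 among them. The highest late KPC member had 3. In late KPfC and normal pancreas these cells carried naive genes as well. In normal pancreas 10 of 12 had Ccr7 and 7 of 12 had Lef1, against 48 and 43 of the other 65 unmixed members, and 6 naive genes, with Ccr7, Lef1, Tcf7, S1pr1 and Satb1 among them, had a median of 6.5 UMIs, against 6 in those 65. In late KPfC 1 of the 5 had Ccr7, 2 had Lef1, 4 had S1pr1 and 4 had Satb1, against 5, 1, 6 and 4 of the other 9, with medians of 3 and 4 UMIs of the 6 genes. Depth outside the acinar, haemoglobin and mitochondrial genes was close within late KPfC and within normal pancreas. The medians were 2979 and 3171 UMIs in late KPfC and 2455 and 2112 in normal pancreas, the cytotoxic cells first. Late KPC members were shallower, with a median of 1012 such UMIs. The limit of 5 UMIs was not scaled to depth, so the 0 of 19 in late KPC is not a comparison at equal depth.

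**Figure D4:**
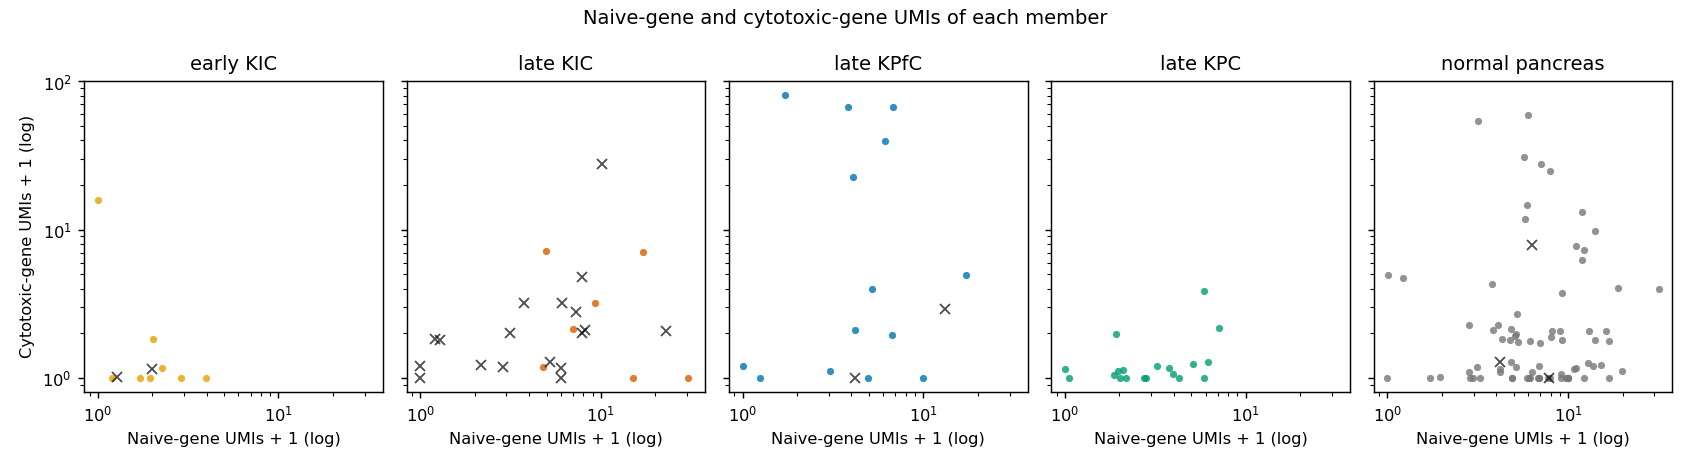
UMIs of 6 naive genes plus 1 (horizontal) and of 5 cytotoxic genes plus 1 (vertical) in each member, 1 panel per library, log axes with a small jitter; dots are unmixed members and crosses mixed ones. The normal members reach high on the naive axis with and without cytotoxic UMIs, the late KPfC cells with 22 to 80 cytotoxic UMIs stand apart at the top, and no late KPC member exceeds 3.

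The CD8 members of late KPfC held most of its cytotoxic transcripts. The 9 unmixed ones had 201 Ccl5 UMIs in 5 cells and 38 Nkg7 UMIs in 5, against 20 Ccl5 UMIs in 1 cell and 0 Nkg7 UMIs in the 5 unmixed members of neither class. In normal pancreas the 21 unmixed CD8 members had Ccl5 in 10 cells (988 CPM), against 3 of the 10 CD4 members (596 CPM), and Nkg7 in 7 (113 CPM), against 2 (67.5 CPM). On the corrected scale the order of both genes turned, with Ccl5 at 1774 CPM in CD8 and 2015 in CD4 members and Nkg7 at 203 and 228. The CD4 values rest on 1 cell each, which held 51 of 53 Ccl5 UMIs and 5 of 6 Nkg7 UMIs. Naive genes were higher in CD8 members on both scales: corrected, Lef1 was at 610 CPM in CD8 and 342 in CD4 members, Ccr7 at 1331 and 875, and Satb1 at 1127 and 646. The median depth was 2763 UMIs in CD8 and 7451.5 in CD4 members, and 2413 and 2349 outside the acinar, haemoglobin and mitochondrial genes. Only this library had 10 or more members of each class, so no test across libraries was made.

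Lef1, of the naive and central memory list, was found in a larger share of normal members than of any tumour's, with or without mixed barcodes. Late KPC members held Lef1 and Ccr7 near the normal level in plain CPM and at 0.506 and 0.504 of it on the corrected scale. Lef1, a transcription factor of naive T cells, had 1 UMI in 1 cell in early KIC, 4 in 3 in late KIC, 7 in 3 in late KPfC, 6 in 4 in late KPC and 104 in 52 in normal pancreas. The levels were 48.3, 10.5, 118, 273 and 275 CPM in that order, and none of the late KIC UMIs lay in an unmixed member. Collagen-rich barcodes had a Lef1 UMI in 0%, 3.85%, 0%, 2.52% and 0.46% of cases. Thinned to 650 UMIs, 9.6%, 2.33%, 7.18%, 18.8% and 30.9% of members kept a Lef1 UMI. Lef1 was 2.33-fold lower in late KPfC than in normal pancreas (ratio 0.430, 0.169 to 0.917; corrected 0.231, 0.0907 to 0.494), whereas late KPC gave 0.991 (0.355 to 2.23; corrected 0.506, 0.181 to 1.14).

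Ccr7, the receptor that leads T cells into lymph nodes, had 2 UMIs in 2 cells in early KIC, 74 in 14 in late KIC, 22 in 8 in late KPfC, 10 in 8 in late KPC and 174 in 60 in normal pancreas, or 96.7, 193, 371, 454 and 460 CPM. All 7 unmixed late KIC members had it, at 667 CPM, against 58 of 77 in normal pancreas, at 463 CPM, while on the corrected scale these were 682 and 975 CPM. Its share in late KIC collagen-rich barcodes was 21.8%, against at most 4.13% in the other libraries. In late KPfC against normal pancreas the ratio was 0.807 (0.493 to 1.26) and 0.434 corrected (0.265 to 0.679), and in late KPC it was 0.987 (0.465 to 1.86) and 0.504 corrected (0.237 to 0.948). S1pr1, which leads T cells out of tissue and lymph nodes, stood at 48.3, 44.4, 304, 45.4 and 212 CPM. The late KPC value rests on 1 UMI, with a ratio to normal pancreas of 0.215 (0.00537 to 1.23; corrected 0.11, 0.00274 to 0.628). In late KPfC 18 UMIs in 11 of 16 members gave a ratio of 1.44 (0.810 to 2.42; corrected 0.773, 0.436 to 1.30), an interval that includes 1 on both scales. S1pr1 was in 9.89% of the late KPfC collagen-rich barcodes.

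Satb1, a chromatin organiser of developing and naive T cells, had 4 UMIs in 2 cells in early KIC, 48 in 19 in late KIC, 17 in 9 in late KPfC, 25 in 13 in late KPC and 156 in 61 in normal pancreas. In CPM these were 193, 125, 287, 1135 and 413. Late KPC members were 2.75-fold higher than normal ones (1.73 to 4.22), but 1.40-fold corrected, with an interval that includes 1 (0.882 to 2.15). Against late KPfC, Satb1 was 3.96-fold higher in late KPC (2.05 to 7.81) and 3.75-fold corrected (1.95 to 7.40). Satb1 was in 1.2%, 14.1%, 7.14%, 7.56% and 4.82% of the collagen-rich barcodes, and in 19.4%, 22%, 18%, 57.1% and 42.7% of members thinned to 650 UMIs. Over the 12 genes of the naive list, unmixed members stood at 1206 CPM in early KIC, 1775 in late KIC, 2265 in late KPfC, 3152 in late KPC and 5302 in normal pancreas on the corrected scale, while the uncorrected sums over all members were 870, 2104, 2212, 2997 and 2549 CPM.

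Il7r, the receptor chain for the survival cytokine IL-7, was found in 3 early KIC, 12 late KIC, 9 late KPfC, 7 late KPC and 44 normal members, and its ratio to normal pancreas was 1.12 in late KPfC (0.616 to 1.92) and 1.32 in late KPC (0.517 to 2.83), which turned to 0.604 (0.331 to 1.03) and 0.674 (0.264 to 1.45) corrected. Tcf7, a partner of Lef1, had 0, 13, 9, 4 and 22 UMIs, and its late KPfC ratio of 2.61 (1.06 to 5.90) was 1.41 corrected (0.570 to 3.18). Among signalling genes, Lck had 8, 12, 8, 3 and 39 UMIs in 6, 7, 5, 2 and 31 members, and its late KPfC ratio to normal pancreas was 1.31 (0.529 to 2.84; corrected 0.705, 0.284 to 1.53). Cd28, the main costimulatory receptor, had 5, 7, 8, 9 and 72 UMIs; the late KPC ratio was 2.15 (0.944 to 4.31; corrected 1.10, 0.481 to 2.20). Icos, a costimulatory receptor of activated cells, had 4, 6, 15, 2 and 29 UMIs and was 3.30-fold higher in late KPfC than in normal pancreas (1.65 to 6.36), or 1.78-fold corrected (0.885 to 3.42).

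The 17 genes of the cytokine list gave 16 UMIs in early KIC members, 540 in late KIC, 58 in late KPfC, 13 in late KPC and 55 in normal pancreas, of which 13, 19, 33, 13 and 51 lay in unmixed members. Most came from a few genes. Tgfb1, an immunosuppressive cytokine that many cell types make, had 6, 94, 17, 0 and 21 UMIs, and was 5.17-fold higher in late KPfC than in normal pancreas (2.56 to 10.3; corrected 2.78, 1.38 to 5.53). It stood at 287 CPM in late KPfC members, against 203 CPM in the other barcodes of that library. Ifng, Il4, Il5, Il13, Il21 and Il22 were at 0 in the members of all 5 libraries. Il17a, a cytokine that calls in neutrophils, had 1 UMI in 1 cell in early KIC, 0 in late KIC, 14 in 2 cells in late KPfC, 0 in late KPC and 4 in 1 cell in normal pancreas. In late KPfC 13 of the 14 lay in 1 barcode of 4614 UMIs with 5 UMIs of its relative Il17f and 7 of the transcription factor Rora. That barcode is one of the mixed ones, with 5297 haemoglobin UMIs per 10000. The other late KPfC cell held 1 Il17a UMI, 10 of the tissue-homing receptor Cxcr6 and 1 of Cd163l1, which marks a gamma-delta T cell line in mice. The normal cell held 4 Il17a, 1 Il17f and 4 Rora UMIs. The gamma-delta constant genes are not analysed here, so the receptor type of these cells is not given. Cxcr6 had 1, 0, 13, 1 and 6 UMIs, the 13 in 4 late KPfC members.

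Tnfsf8, the ligand of CD30, was at 454 CPM in late KPC (10 UMIs in 5 members, 218 to 835), against 5.29 in normal pancreas (2 UMIs in 2 members), and had 1, 4 and 6 UMIs in early KIC, late KIC and late KPfC. It was in 2.52% of the late KPC collagen-rich barcodes. Xcl1, a chemokine that attracts cross-presenting dendritic cells, had 5 UMIs in 1 early KIC member and 17 in 4 normal ones, with 2, 0 and 0 in late KIC, late KPfC and late KPC. Ccr4, a homing receptor, was seen only in early KIC, with 3 UMIs in 2 members. Areg, a growth factor of the EGF family, had 413 UMIs in 7 late KIC members, all of them mixed, against 3 UMIs in early KIC, 1 in late KPC and 0 in late KPfC and normal pancreas.

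Inhibitory receptors were near the limit of detection. Pdcd1, which encodes PD-1, had 0, 1, 2, 0 and 3 UMIs in early KIC, late KIC, late KPfC, late KPC and normal members. Lag3 had 1 UMI, in a mixed late KIC barcode, and Tigit had 1, in late KPC. Tox, a transcription factor of exhausted cells, had 0, 4, 2, 0 and 11 UMIs. The 12 genes of the inhibitory list summed to 242, 88.9, 304, 227 and 103 CPM in the members. The other kept barcodes stood at 151, 117, 330, 367 and 60.9 CPM in the same order. The members' intervals included the value of the other barcodes in early KIC (78.5 to 564), late KIC (61.5 to 124), late KPfC (180 to 480) and late KPC (73.7 to 530). In normal pancreas the interval (73.3 to 141) lay above it. Whether the members' sums are background was not tested. Unmixed members held 15 UMIs in late KIC (238 CPM) and 17 in late KPfC (350 CPM), on the corrected scale. In late KPfC against normal pancreas the 1 tested gene of the list was higher, with a log2 ratio of 2.43, or 1.54 corrected.

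MHC class I genes, which nucleated cells use to show peptides to CD8 T cells, stood in the unmixed members at 6174 CPM in early KIC, 4771 in late KIC, 5559 in late KPfC, 5397 in late KPC and 6917 in normal pancreas on the corrected scale. B2m, its light chain, was 1.51-fold higher in late KPfC than in normal pancreas (1.25 to 1.83) and 0.814 of it corrected (0.671 to 0.982), so its direction depends on the scale. The cell cycle gene Mki67 was found only in 1 normal member, with 2 UMIs, and Top2a had 2, 6, 3, 0 and 17 UMIs. In late KPfC all 3 Top2a UMIs lay in 1 cell. These counts come from member totals of 20694, 382687, 59229, 22021 and 378136 UMIs, so they do not rank the libraries. Over the 14 genes of the cell cycle list, unmixed members stood at 3548 CPM in early KIC and 4692 in late KIC on the corrected scale. The values were 1606 in late KPfC, 1051 in late KPC and 1985 in normal pancreas.

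The libraries differ in sex. Among members with a sex-linked transcript, those with Xist only were 10 in early KIC, 11 in late KIC, 0 in late KPfC, 12 in late KPC and 46 in normal pancreas, and those with Y-linked transcripts only were 0, 4, 11, 0 and 2. A further 3 late KIC members had both. Over all kept barcodes, late KIC held 344 with Xist only and 272 with Y-linked transcripts only, and normal pancreas 658 and 123, so both libraries hold cells of both sexes. The late KPfC members were thus male and those of early KIC and late KPC female, and sex cannot be told apart from the group in those comparisons.

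Ratios were taken over all genes with at least 20 UMIs in both libraries together, and a gene was called higher or lower when it was at least 2-fold apart. Only late KIC against normal pancreas had 20 or more members on each side; late KPfC (16) and late KPC (19) were added with a minimum of 15 that was chosen after the data were seen, and early KIC (10) was not compared. The comparisons share libraries: normal pancreas enters 3 of them and late KPfC also 3. The median log2 ratio of all genes was 1.09 in late KIC, 0.87 in late KPfC and 0.80 in late KPC against normal pancreas, and on the corrected scale 0.18, -0.004 and -0.14, so plain ratios near these medians are not particular to a gene.

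In late KPfC against normal pancreas, 43.2% of 1408 tested genes were higher and 8.31% lower (608 and 117), and on the corrected scale 124 were higher and 219 lower. All 5 tested genes of the 14 on the cytotoxic list were higher, with a median log2 ratio of 2.52, and 4 were higher corrected (median 1.63). Markers of other cell types were higher in these members too: both tested natural killer genes, Tyrobp and Fcer1g, which myeloid cells share, 2 of 3 macrophage genes with Lyz2 at 12.02-fold (corrected 6.47), and both tested neutrophil genes, S100a8 at 131-fold (corrected 70.4) and S100a9. In late KPfC 91 of 92 neutrophil UMIs and 56 of 77 macrophage UMIs lay in unmixed members. S100a8 stood at 692 CPM in the members, against 1956 CPM in the other late KPfC barcodes, and Lyz2 at 540, against 8198; their part in the cytotoxic and effector values was not tested. Of 9 tested naive genes, 1 was higher and 2 lower (median -0.17), and corrected 0 were higher and 5 lower (median -1.07). Of 11 tested receptor signalling genes 3 were higher, and corrected 4 were lower. Of 9 effector and memory genes 6 were higher (median 1.87), and corrected 4 were higher and 1 lower (median 0.97). Among effector genes, S100a6, a calcium-binding protein, stood at 70 UMIs in 9 late KPfC members, against 10 in 6 normal ones, but at 3942 CPM in the other late KPfC barcodes, against 1182 CPM in the members. Ly6c2, a surface protein of memory CD8 T cells and of monocytes, had 21 UMIs in 7 late KPfC members, against 12 in 7 normal ones, and was 11.2-fold higher (5.25 to 24.9), or 6.01-fold corrected (2.83 to 13.4); it stood at 21.3 CPM in the other late KPfC barcodes, against 355 CPM in the members.

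Of the genes furthest apart between late KPfC and normal members, Furin, a protease that activates growth factors, had 24 UMIs, against 6, and the unmixed members 8, against 6. Hist1h2ap, a histone gene, had 36 UMIs in 2 cells, against 12 in 5. Socs3, an inhibitor of cytokine signalling, had 17 UMIs in 12 late KPfC members, against 13 in 11 normal ones. That is 8.35-fold higher (3.82 to 18.7), with a corrected log2 ratio of 2.17. Socs3 stood at 287 CPM in the late KPfC members, close to the 222 CPM of the other barcodes of that library. Rab8b, Dnajc15, Rrad, Cox17 and 2810417H13Rik were 8.30-fold to 12.8-fold higher, with corrected log2 ratios of 2.16 to 2.78. The 13 UMIs of 2810417H13Rik lay in 1 cell. Rab8b and Cox17 stood at 236 and 388 CPM in the late KPfC members, close to 214 and 337 in that library's other barcodes. Dnajc15, Rrad and 2810417H13Rik stood further above them, at 304, 236 and 219.5 CPM, against 68.2, 27.3 and 38.5. Tsc22d3, a glucocorticoid-induced gene of resting T cells, was 6.32-fold lower in late KPfC (corrected log2 ratio -3.55), with 3 UMIs, against 121 in 57 normal members, and its level in the other barcodes was 56.3 CPM in late KPfC and 119 in normal pancreas. The predicted genes Gm10709 and Gm8730, which can share reads with near-identical copies, were 8.69-fold and 3.18-fold lower.

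In late KPC against normal pancreas, 41.5% of 1213 tested genes were higher and 7.17% lower (503 and 87), and corrected 123 were higher and 215 lower. A further 100 of the 1213 genes were at 0 in late KPC at a depth that could not place them. Of 9 tested naive genes 2 were higher and 1 lower (median -0.02), and corrected 0 were higher and 2 lower (median -0.99). Of 10 receptor signalling genes 4 were higher (median 0.57), and corrected 1 was higher and 1 lower (median -0.40). Of 3 tested cytotoxic genes 1 was higher and 1, Ccl5, lower. Klf2, which drives S1pr1 in naive cells, had 8 UMIs, against 252, a ratio of 0.545 (0.233 to 1.09) and of 0.278 corrected (0.119 to 0.557). Crem, a cAMP-responsive regulator, was 2.57-fold higher (1.58 to 3.99) and 1.31-fold corrected, and was also high in the other late KPC barcodes, at 363 CPM, against 1044 CPM in the members.

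The genes furthest higher in late KPC members were Vps8 (51 UMIs in 5 cells, against 0), a gene of endosome fusion, and Gm26870 (34 in 12, against 3 in 1). The other late KPC barcodes also held them, at 694 and 536 CPM, against 4.41 and 0.972 CPM in normal pancreas. Stat3, which carries cytokine signals to the nucleus, had 11 UMIs in 7 late KPC members, against 21 in 16 normal ones, and was 8.995-fold higher (3.92 to 19.5), with a corrected log2 ratio of 2.20. It stood at 160 CPM in the other late KPC barcodes, against 43.4 in those of normal pancreas. Snrpd3, Phip, Mier1, Wnk1, Ankrd11 and Ndufb2 were 8.01-fold to 12.9-fold higher, with corrected log2 ratios of 2.03 to 2.72 and 7 to 11 late KPC UMIs each. The other barcodes differed the same way, at 235, 49.3, 61.7, 190.9, 101.7 and 208 CPM in late KPC, in that order. In normal pancreas the other barcodes stood at 34.9, 21.9, 21.3, 47.55, 27.7 and 79.2 CPM. Lower were Ccl5, Gm10073 (6.23-fold) and the haemoglobin gene Hbb-bs (3.11-fold), the last of which turned to higher without the mixed normal barcodes.

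In late KPC against late KPfC, 8.45% of 438 tested genes were higher and 19.6% lower (37 and 86). The 4 tested naive genes had 1 higher, Satb1, and 0 lower, of the effector list 0 were higher and 4 of 7 lower (median -1.11), and both tested cytotoxic genes, Ccl5 and Nkg7, were lower. None of 4 tested MHC class I genes was called. Hsp90aa1, a chaperone, was 4.80-fold higher (25 UMIs, against 14). It stood at 983 CPM in the other late KPC barcodes, against 408 in those of late KPfC. Tmsb10, which binds actin monomers, was 3.52-fold lower (44 UMIs, against 417). The other barcodes differed the same way, with Tmsb10 at 1476 CPM in late KPC and 4238 in late KPfC. Vps8, Gm26870 and Gm10263 were higher here too, and Gm10073, Furin, Hist1h2ap and the haemoglobin genes Hba-a1, Hba-a2 and Hbb-bs were lower; Hba-a1 and Hbb-bs turned to higher without mixed late KPfC barcodes.

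In late KIC against normal pancreas, 53.1% of 3129 tested genes were higher and 7.22% lower (1660 and 226), and corrected 827 were higher and 460 lower. Mixed barcodes held 83.2% of the late KIC UMIs and the 7 unmixed members were too few for ratios, so their levels are given beside the lists. Among the genes furthest higher, Spp1, a secreted phosphoprotein of macrophages and tumour cells, had 2431 UMIs, against 1, of which 8 lay in unmixed late KIC members. S100a8, S100a9, Ngp and Camp are neutrophil genes, and Npy, a neuropeptide, had 729 UMIs, against 0. S100a6, Meg3 and Ecm1 were also among them, and Cd44, an adhesion receptor, had 289 UMIs, against 2, with 3 in unmixed late KIC members. All 3 tested epithelial genes were higher (median 6.47), as were 13 of 14 effector and memory genes (median 4.07), and 9 of 13 immediate early genes (median 1.98). Unmixed late KIC members held 171 of the 13519 effector UMIs, at 2711 CPM, against 2443 in unmixed normal members, and immediate early genes stood at 1981 CPM, against 3805, the opposite direction, both on the corrected scale. Of 13 receptor signalling genes 7 were lower (median -1.22), and of 10 naive genes 7 were lower and 1 higher (median -1.19). In unmixed members signalling genes stood at 2425 CPM in late KIC, against 3012 in normal pancreas, and naive genes at 1775, against 5302, on the corrected scale. The CD3 genes entered the rule with a fixed minimum, so their ratios are not read. Lef1 was 26.3-fold lower, Cd28 10.4-fold and Itgb7, an integrin chain for homing to the gut, 34.4-fold (1 UMI, against 34). The corrected log2 ratios were -5.65, -4.32 and -6.04. These folds are over all members, mixed barcodes included. Unmixed members held 0, 7 and 1 UMIs of these genes in late KIC, against 100, 70 and 29 in normal pancreas. All 7 late KIC UMIs of Cd28 thus lay in unmixed members, while mixed barcodes held 83.2% of the UMIs in the total. Ggt1, Gm26740, H2-Q4, Cabp2, Rora, Vtn and Crlf3 were the others furthest lower, with Rora at 0, against 23 UMIs.

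In late KIC against late KPfC, 27.9% of 2451 tested genes were higher and 12% lower (685 and 295), and here acinar RNA was low in both libraries. Of 9 tested receptor signalling genes 8 were lower (median -1.69), and 3 of 4 MHC class I genes were lower. Unmixed members gave the opposite direction for signalling genes, 2425 CPM in late KIC, against 1997 in late KPfC, and smaller distances for others: MHC class I genes stood at 4771, against 5559, on the corrected scale. Ccl5 was 39.7-fold lower, Nkg7 19.9-fold, Cd8b1 19.4-fold, Icos 16.2-fold and Cd27, a costimulatory receptor of the TNF receptor family, 11.3-fold. In unmixed members Nkg7 was at 140 CPM in late KIC, against 739 in late KPfC, Cd8b1 at 46.6, against 331, Icos at 77.6, against 233, and Cd27 at 93.1, against 233, with 9, 3, 5 and 6 late KIC UMIs, while Ccl5 was at 0, against 4296. Dusp2, Ms4a4b, AW112010, Chd7 and H2-Q7 were also among the furthest lower. Krt8, Krt18, Lmna, F2r, Camp, Npy, Meg3, Jun and Gm10260 were the furthest higher. Krt8 and Krt18 are genes of the keratin count that marked late KIC barcodes as mixed.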

How the data were processed

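Each library was deposited as a table of UMI counts by gene and barcode, which the authors made with Cell Ranger 2.1.1 on GRCm38, per the submitters' processing notes. The sources used here do not state the reads per UMI or the annotation release. Members were found by the rule in the raw tables, and the members and gene lists were chosen with earlier results of these data known. UMIs were summed over the members of a library and divided by their total (CPM); the corrected scale leaves acinar secretory, haemoglobin and mitochondrial genes out of the total. Intervals are exact binomial or Poisson at 95%. A library at 0 was set to 3 counts and its ratio given as a bound. Genes were named when they stood among the 10 furthest apart in each direction, had at least 20 UMIs, an interval beyond 2-fold and a level in the higher library's members at least that of its other barcodes, or when they were on a list. Some genes are not reported here. Doublets were not removed and no caller was run. The limits for mixed barcodes and the minimum of 15 members were chosen after seeing the data. The planned edgeR test of CD8 against CD4 members was not run, since only 1 library had 10 of each. The ratio code was checked on simulated data. Python 3.11.15, numpy 2.4.6, scipy 1.17.1, pandas 2.3.3 and matplotlib 3.10.9 were used.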

Additional observations from a re-analysis of the deposited data

How the results depend on the processing

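The count of genes at least 2-fold apart followed the depth and the scale. With a minimum of 50 UMIs it was 849 for late KIC, 246 for late KPC and 303 for late KPfC against normal pancreas, 438 for late KIC and 39 for late KPC against late KPfC, and with a minimum of 1 UMI 4847, 3219, 4049, 3201 and 1572, in place of 1886, 590, 725, 980 and 123. The corrected scale gave 338 for late KPC and 343 for late KPfC against normal pancreas, and median-of-ratios scaling 393 and 378. Normal cells with Xist only gave 375 and 467, and members with at least 3 CD3 UMIs gave 1009 for late KIC against normal pancreas, an alternative added after seeing the data. Without mixed barcodes the log2 ratio of Hbb-bs turned to 2.07 in late KPC against normal pancreas and to 2.86 against late KPfC, and that of Hba-a1 to 3.03 against late KPfC; the construction of this alternative removes haemoglobin-rich barcodes. The share of members moved with the CD3 minimum. At 1 UMI it was 0.708% in early KIC, 6.22% in late KIC, 5.22% in late KPC and 6.66% in normal pancreas, and at 3 UMIs 0.113%, 1.91%, 0.677% and 1.89%. With at least 500 UMIs and 500 genes and at most 10% mitochondrial UMIs the normal share was 6.00%. Thinned to 1000 UMIs the share was 0.142% in early KIC, 0.478% in late KIC, 0.307% in late KPfC and 1.13% in normal pancreas. In late KPC it was 1.20% (10 of 834 barcodes), with 200 barcodes left out as too shallow. The late KPC share thus no longer stood below that of normal pancreas. Without mixed barcodes the late KIC share was 0.837%. The CD8 share of early KIC members was 75% at 3 CD3 UMIs and 0% thinned, and thinned it was 33.3% in late KPfC and 14.8% in normal pancreas. With a regulatory limit of 0 every share of members stayed within its interval, though the early KIC share was 0.142% (5 members). The mean of per-cell shares moved no count by over 1.5 times, but moved 18 of 81 ratios of named genes outside their intervals. Ratios without mixed barcodes for late KIC (7 members), ratios at 3 CD3 UMIs for late KPfC and late KPC, and all fits of CD8 against CD4 members were not obtained for lack of members. No paired analysis was possible because each group has 1 library. Genes with few UMIs have wide intervals, and in late KPC, with 22021 member UMIs, a gene at 0 may stand at up to 136 CPM.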
